A study of Mus musculus with 5 samples.

Results

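Calb2-high control neurons are auditory neurons of the mouse cochlea that carry very large amounts of Calb2 RNA, which encodes the calcium-binding protein calretinin. They were chosen among control neurons by 3 cuts on levels in UMIs per 10000, where a unique molecular identifier (UMI) marks 1 captured RNA molecule and the level is that gene's UMIs per 10000 UMIs of the cell. The cuts were Dupd1 under 1, Lypd1 under 3 and Calb2 at 150 or more. Of 1070 control neurons, 242 met them, or 22.6% (exact 95% interval 20.1 to 25.2), and the series holds 1954 neurons in all. Because these levels chose the cells, the differences between them and other control neurons are descriptions, and no test was made.

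RNA was counted in single cells with the 10x Genomics 3' assay in 3 Runx1-CKO samples and 2 control samples. The CKO animals carried bhlhb5-Cre/+, the Ai14/+ tdTomato reporter and 2 floxed Runx1 alleles (Runx1F/F), and the control animals carried bhlhb5-Cre/+ and Ai14/+ without the floxed alleles. Cre and the reporter were thus present in both genotypes, animals were of both sexes and 30 to 33 days old, and dissociated cochlear cells were sorted for tdTomato, which restricts the data to cells in which bhlhb5-Cre had been active. The deposited record names the genotype of each cell but not its sample, so each genotype was 1 pool and gave no replicate spread.

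Spiral ganglion neurons connect the hair cells of the cochlea to the brainstem. Type I neurons contact inner hair cells and relay sound, whereas the sparse type II neurons contact outer hair cells. Type I neurons fall into the subtypes Ia, Ib and Ic. Calretinin is highest in Ia, calbindin (Calb1) is used to mark Ib, and Lypd1 and Pou4f1 mark Ic. Type Ia neurons are associated with synapses on the pillar side of the inner hair cell and with high spontaneous firing. Dupd1, a dual-specificity phosphatase gene, separated type II-like cells here.

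Cells could be placed only in 5 stretches of columns between restarts of the alphabetical order of their barcodes. Stretches 2 and 5 hold control cells, stretches 1, 3 and 4 hold CKO cells, and 1 barcode occurs in 2 stretches. The sources used here do not say which sample a stretch is. The 242 Calb2-high neurons had a median of 48726 UMIs and 7120.5 genes per cell, and the 828 other control neurons had medians of 36045.5 UMIs and 6542 genes. The number of Calb2-high neurons differed by stretch. They were 10.8% of stretch 2 (52 of 482, exact 95% interval 8.16 to 13.9) and 32.3% of stretch 5 (190 of 588, 28.5 to 36.3). The intervals do not overlap, and cover counting error only. The sort and the dissociation can set such a share, and their part in it was not tested.

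The other control neurons formed 3 classes by the same genes. The Calb2-lower class held 395 neurons with Dupd1 under 1, Lypd1 under 3 and Calb2 under 150, and is the nearest neighbour of the Calb2-high neurons. The Lypd1-high class held 314 neurons with Dupd1 under 1 and Lypd1 at 3 or more, and the Dupd1-positive class held 119. Calb2 in the Calb2-high neurons ran from 152 through a median of 242 to 383 UMIs per 10000, so that this 1 gene made up 1.52 to 3.83% of the RNA molecules of a cell, with a mean of 2.45%. It averaged 0.326% in the other control neurons. The highest Calb2 level was 90.8 in the Lypd1-high class and 9.56 in the Dupd1-positive class. High Calb2 and Lypd1 did not occur together: 0 of the 314 Lypd1-high neurons reached a Calb2 level of 150, where 3 counts would give 0.955%. Lypd1 was at 0 in 226 of the 242 Calb2-high neurons and reached at most 0.642, and Dupd1 was at 0 in 241 and reached at most 0.179.

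**Figure D1:**
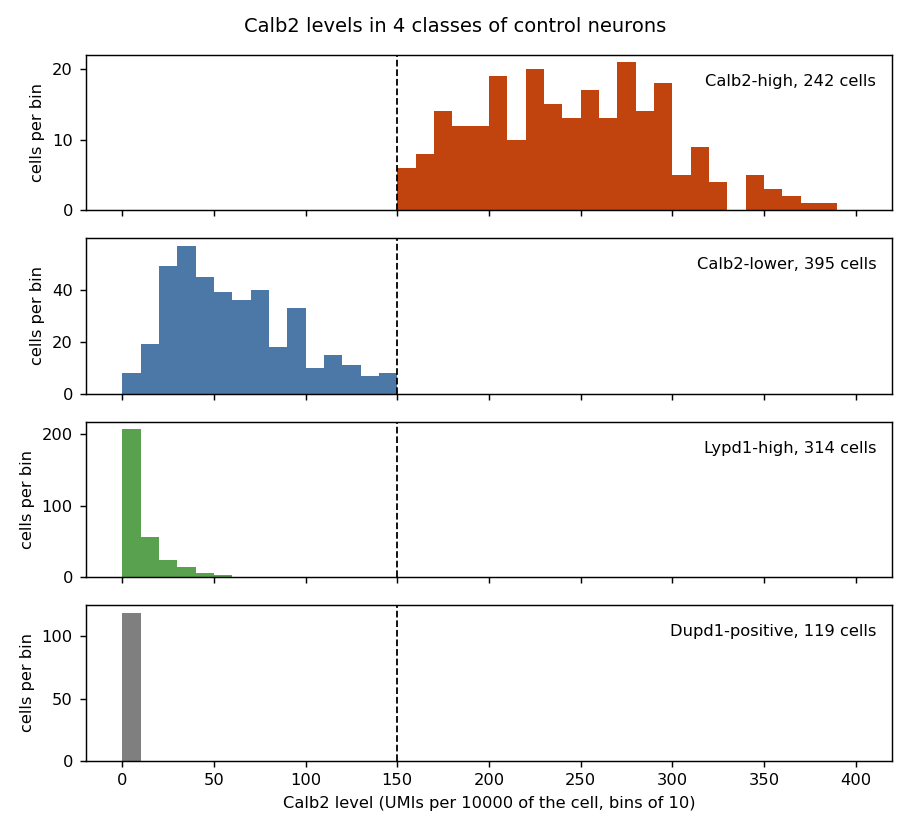
Number of control neurons (vertical axis, a separate linear scale per panel) by Calb2 level in UMIs per 10000 of the cell (horizontal axis, bins of 10), with the Calb2-high class on top and the Calb2-lower, Lypd1-high and Dupd1-positive classes under it; the dashed line marks the cut at 150. Calb2-high neurons spread from 152 to 383, and no Lypd1-high neuron lies above 90.8.

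The 10 neurons just inside the Calb2 cut had Calb2 levels of 152 to 166, with means of 12.3 for Mdga1, 0.971 for Runx1 and 6.93 for Btbd9. The 10 just outside it had Calb2 levels of 139 to 147, with means of 6.21 for Mdga1, 1.29 for Runx1 and 10.8 for Btbd9. Mdga1 was higher and Runx1 and Btbd9 were lower inside the cut. On both sides each gene lay between the means of the Calb2-high and Calb2-lower classes, Mdga1 inside the cut being near the Calb2-high mean.

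The Calb2-high neurons carried the other markers of type Ia as well. B3gat1, whose enzyme adds glucuronic acid in building the HNK-1 glycan of adhesion molecules, had means of 2.05 in stretch 2 and 2.01 in stretch 5 of the Calb2-high neurons, against 0.241 and 0.497 in the other control neurons. Over all cells its mean was 2.02 in Calb2-high neurons and 0.364 in the others (log2 2.19). Its ratio of UMI rates was 5.51 (exact 95% interval for counting error 5.12 to 5.93). Here and below, log2 values are of the means with 0.1 added to each, which understates the change of low genes. Tmem132c, a transmembrane protein gene, averaged 0.677 in Calb2-high neurons and 0.0807 in the others (log2 2.10). Car2, a carbonic anhydrase, averaged 0.960 and 0.236 (log2 1.66). Both genes were higher in the Calb2-high neurons within each stretch.

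Mdga1 and Rxrg separated the Calb2-high neurons from other type I neurons but less from Dupd1-positive cells. Mdga1, a membrane-anchored protein that binds neuroligins at synapses, averaged 12.5 in Calb2-high neurons, 4.06 in the Calb2-lower class, 3.42 in the Lypd1-high class and 6.10 in the Dupd1-positive class. Its level in the Calb2-high neurons was 16.6 in stretch 2 and 11.4 in stretch 5, both above every other class. Rxrg, the retinoid X receptor gamma, averaged 0.507 in Calb2-high neurons, 0.113 in Calb2-lower, 0.00706 in Lypd1-high and 0.565 in Dupd1-positive neurons. Rxrg is thus about as abundant in the Dupd1-positive cells, where its stretch means enclose those of the Calb2-high neurons. Pcdh20, a protocadherin also listed as a type Ia marker, averaged 0.438 in Calb2-high neurons, 0.101 in Calb2-lower neurons and 2.25 in Dupd1-positive neurons, so it was a marker within type I neurons alone.

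**Figure D2:**
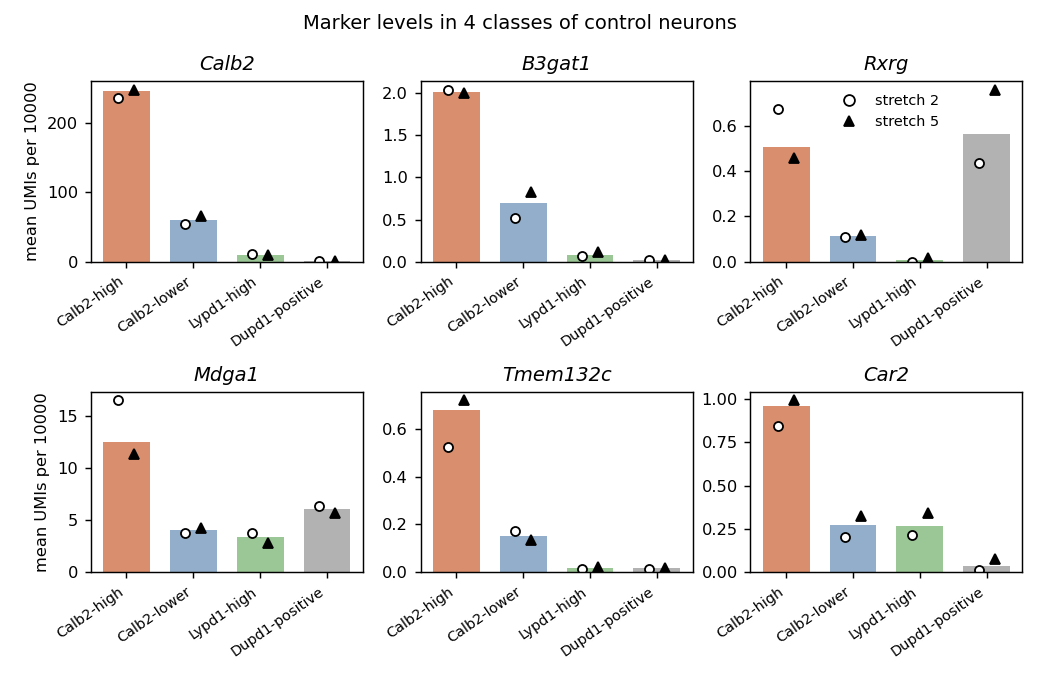
Mean level in UMIs per 10000 (vertical axes, from 0) of the 6 type Ia markers in the Calb2-high, Calb2-lower, Lypd1-high and Dupd1-positive control neurons; bars are means over all cells of a class, circles are stretch 2 and triangles stretch 5. Calb2-high bars are the tallest for every gene but Rxrg, where Calb2-high neurons had 0.507 and Dupd1-positive neurons 0.565.

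The markers other than Calb2 were also counted cell by cell. After each cell was thinned to 10000 UMIs, 76.9% of Calb2-high neurons (186 of 242, exact 95% interval 71.0 to 82.0) held a UMI of at least 3 of the 5 genes B3gat1, Rxrg, Mdga1, Tmem132c and Car2. The share was 18.5% in Calb2-lower neurons (73 of 395, 14.8 to 22.7), 0.955% in Lypd1-high neurons (3 of 314) and 3.36% in Dupd1-positive neurons (4 of 119). Mdga1 was seen in 94.3 to 99.2% of thinned neurons of every class, so the count rests on the other 4 genes, and whether these met in the same cells beyond their single shares was not tested. Of the single genes, B3gat1 was seen in 85.1% of thinned Calb2-high, 42.5% of Calb2-lower and 2.52% of Dupd1-positive neurons. Tmem132c was seen in 43.0%, 14.7% and 1.68% of these. The median depth before thinning was 48726 UMIs in the Calb2-high and 25326 UMIs in the Dupd1-positive neurons. The Calb2-high shares of both genes lay far above those of the Dupd1-positive cells. Those cells have expression of their own, so their shares do not measure free RNA, which was not estimated. Without thinning B3gat1 was seen in 99.6% of Calb2-high and 76.5% of Calb2-lower neurons. The 5 markers thus had higher means here than in the other type I classes. They were given with the rule, earlier results of these data being known, and the class was cut along Calb2. Their levels therefore describe the class and do not test its label of type Ia.

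Retinoid X receptors pair with other nuclear receptors on DNA motifs built from AGGTCA, which made the promoters of the genes higher in Calb2-high than in Calb2-lower neurons of interest. In the RefSeq promoter table (build GRCm38.p6), 250 bases before each gene start were searched for AGGTCA on both strands. Of the 12 genes at least 2-fold higher in the Calb2-high neurons, 8 were matched to the table and 3 of them held the motif, namely B3gat1, Plin2 and Rxrg. Of the 29 at least 2-fold lower, 21 were matched and 2 held it. It occurred in 14.02% of 32851 windows of the same length, and in 404 of 2889 matched genes tested (13.98%). The windows of Rxrg (chr1:167618015-167618264, plus strand) and Plin2 (chr4:86670060-86670309, minus strand) that hold it are shown, both genes being among those higher in the Calb2-high neurons. They run 5' to 3' on the strand of the gene, with the match in capitals. Printed windows were allowed at most 30 exon bases, and the window of B3gat1 is not shown. Rxrg, at a second listed start 5' of this one, and Tmem132c had no match in the window.
Rxrg: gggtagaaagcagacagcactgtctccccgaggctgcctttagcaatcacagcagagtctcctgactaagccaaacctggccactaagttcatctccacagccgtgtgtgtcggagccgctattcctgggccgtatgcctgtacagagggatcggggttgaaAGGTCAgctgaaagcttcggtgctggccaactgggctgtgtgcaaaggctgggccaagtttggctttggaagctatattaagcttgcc
Plin2: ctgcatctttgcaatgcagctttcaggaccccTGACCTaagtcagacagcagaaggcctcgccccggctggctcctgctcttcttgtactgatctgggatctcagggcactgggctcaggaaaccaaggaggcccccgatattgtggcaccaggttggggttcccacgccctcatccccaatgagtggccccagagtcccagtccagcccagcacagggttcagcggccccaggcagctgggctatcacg
The motif of Plin2 reads TGACCT, its reverse complement. The core bound by Runx factors, TGTGGT, was found on either strand in 0 of the 8 matched higher genes and 1 of the 21 matched lower genes (Panx1), and in 12.01% of the 2889 genes tested. Neither window printed above holds it. A match is a run of letters and not a shown site of binding, and these searches were chosen after the gene lists had been seen.

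Against all other control neurons, 21 of 3838 genes at a mean of 0.5 or more in either group were at least 2-fold higher in the Calb2-high neurons (0.547% of those tested), and 69 were at least 2-fold lower (1.80%). The median log2 value of all 3838 genes was -0.05. Besides the 6 markers, Pygm, Pygl and Plin2 were among those higher. Pygm, glycogen phosphorylase of muscle, averaged 0.548 in Calb2-high neurons and 0.123 in the others (log2 1.54). Pygl, its liver counterpart, averaged 1.09 and 0.419 (log2 1.20), whereas Pygb, the brain form, averaged 0.899 and 1.36 (log2 -0.54). Of 22 glycolysis and glycogen genes at a mean of 0.2 or more, Pygm and Pygl were at least 1.5-fold higher, and Ldha, a lactate dehydrogenase subunit, was lower, with 0.0527 in Calb2-high neurons and 0.280 in the others (log2 -1.31). By the same rule 1.35% of all 6753 genes were higher and 4.53% lower. Plin2, a coat protein of lipid droplets, averaged 0.554 and 0.133 (log2 1.49). Its log2 value was 0.87 in stretch 2 alone, under 2-fold, and 1.63 in stretch 5 alone. Dupd1-positive neurons had nearly as much Plin2, with a mean of 0.470, and after thinning a Plin2 UMI was seen in 33.5% of Calb2-high and 37.0% of Dupd1-positive neurons.

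Zfp804a, a zinc finger protein gene, had the highest level after Calb2 and Mdga1 among the 15 genes with the highest log2 values. Its mean was 5.77 in stretch 2 and 6.83 in stretch 5 of these neurons, against 1.95 and 2.78 in the other control neurons. Over all cells the means were 6.60 and 2.35 (log2 1.45), with a ratio of UMI rates of 2.73 (2.64 to 2.82). No Calb2-high neuron lacked Zfp804a, the lowest having 2.33. Upp1, which splits uridine, averaged 0.741 in Calb2-high neurons and 0.201 in the others, and Afap1l1, an actin-associated protein gene, averaged 0.502 and 0.117. Tmem229b (log2 1.47), Sh3bgr (log2 1.28) and Gnao1, the alpha subunit of the G protein Go (log2 1.22), completed the 15.

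Of the 69 genes lower in the Calb2-high neurons, several of those with the lowest log2 values had their highest mean in the Dupd1-positive cells. Myl1, a myosin light chain, averaged 0.270 in Calb2-high neurons and 7.24 in the others, and its mean was 48.2 in Dupd1-positive cells. Hspb1 (log2 -3.92), S100a13 (-3.52), Apoe (-3.18), Th (-3.07), Plk5 (-2.98), Crabp1 (-2.92), Slc9a3r1 (-2.70) and Kcnc4 (-2.66) likewise had their highest mean in the Dupd1-positive class, as had Rph3a (-4.06). Without the Dupd1-positive cells the count of lower genes was 45 in place of 69, and the log2 values of Myl1 and Apoe were -0.36 and -0.32, while that of Rph3a was -2.27. Rph3a, which encodes the vesicle protein rabphilin, was thus also lower than in the remaining control neurons under the Dupd1 cut. Th, Plk5 and Kcnc4 had 0 UMIs among the 11335454 UMIs of the Calb2-high neurons. Lypd1, a gene of the rule, had log2 -6.90.

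Ntng1, Btbd9 and Slc17a6 were lower in the Calb2-high neurons than in every other type I class. Ntng1, the membrane-anchored adhesion protein netrin-G1, averaged 0.0932 in Calb2-high neurons, 2.36 in Calb2-lower neurons and 2.69 in Lypd1-high neurons. Btbd9, an adaptor of cullin ubiquitin ligases, averaged 1.52, 13.5 and 15.1 in these classes, and Slc17a6, the vesicular glutamate transporter VGLUT2, 0.279, 2.13 and 3.32. These genes were therefore shared by the other type I neurons rather than belonging to 1 of their classes. Slc17a7, which encodes the main transporter VGLUT1, averaged 9.84 in Calb2-high neurons and 6.77 in the other control neurons (log2 0.53).

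The nearest comparison is with the Calb2-lower control neurons, which passed the same Dupd1 and Lypd1 cuts. This class may not be type I neurons alone. At Calb2 levels under 25, its 21 neurons in stretch 2 averaged 10.6 for Myl1 and 0.964 for Crabp1, genes highest in Dupd1-positive cells. Its 28 in stretch 5 had 0.00600 and 0. Of 3757 genes at a mean of 0.5 or more in either class, 12 were at least 2-fold higher in the Calb2-high neurons (0.319%) and 29 at least 2-fold lower (0.772%), with a median log2 value of -0.04 over all genes. After Calb2 (log2 2.02), Plin2 stood highest, with 0.328 in stretch 2 and 0.616 in stretch 5 of the Calb2-high neurons, against 0.0898 and 0.1001 in the Calb2-lower neurons (log2 1.74, ratio of UMI rates 5.91, 4.91 to 7.15). Tmem132c (log2 1.63), Mdga1 (1.60), Car2 (1.51), Rxrg (1.51), Gnao1 (1.44), B3gat1 (1.42), Tmem229b (1.14) and Afap1l1 (1.12) followed. Afap1l1 had log2 0.81 in stretch 2 alone. Among these 10 genes the sign was the same in both stretches.

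Runx1 RNA was low in the Calb2-high neurons. Runx1 is a transcription factor of the Runt family, known for its part in sensory neuron diversity, and is the gene deleted in the CKO animals. It averaged 0.271 in stretch 2 and 0.209 in stretch 5 of the Calb2-high neurons, against 1.76 and 1.71 in the Calb2-lower neurons. Over all cells the means were 0.223 and 1.73 (log2 -2.51, ratio of UMI rates 0.127, 0.111 to 0.145), and Lypd1-high neurons had 1.84. After thinning, a Runx1 UMI was seen in 16.5% of Calb2-high neurons and 73.7% of Calb2-lower neurons, against 0.840% of Dupd1-positive neurons. The stretch means of the classes did not overlap. Cbfb, which encodes the subunit that Runx proteins pair with, averaged 0.219 in Calb2-high and 0.415 in Calb2-lower neurons (log2 -0.69).

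Ntng1 had the lowest value of this comparison. Its stretch means were 0.164 and 0.0738 in stretches 2 and 5 of the Calb2-high neurons, against 2.25 and 2.45 in the Calb2-lower neurons (log2 -3.67). Ttn, the giant muscle protein titin and a type Ib marker, averaged 0.0528 and 1.27 (log2 -3.17). In the Calb2-lower neurons Ttn was uneven, with 2.07 in stretch 2 and 0.657 in stretch 5. Btbd9 averaged 2.27 in stretch 2 and 1.31 in stretch 5 of the Calb2-high neurons, against 15.03 and 12.2 in the Calb2-lower neurons (log2 -3.07, ratio of UMI rates 0.110, 0.105 to 0.116). Rnf123, a second ubiquitin ligase gene, averaged 0.506 and 1.97 (log2 -1.77). The partners listed with both, Cul3, Rbx1 and Ubac1, had log2 values of -0.07, 0.01 and 0.01.

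Calcium-dependent and splicing genes were among the rest. Cpne6 (log2 -2.21) and Cpne9 (-1.88) encode copines, which bind membranes in the presence of calcium. Rbfox3, the neuronal splicing factor NeuN, averaged 0.149 in Calb2-high neurons and 0.893 in Calb2-lower neurons (log2 -1.99). Kcnip2, an auxiliary subunit of A-type potassium channels, averaged 0.113 and 0.649 (log2 -1.82). Calb1, the calbindin gene, averaged 0.283 and 1.31 (log2 -1.87), and its level in the Calb2-high neurons was 0.554 in stretch 2 and 0.209 in stretch 5. Both of these Calb1 levels lay under the 1.28 and 1.33 of the Calb2-lower neurons.

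**Figure D3:**
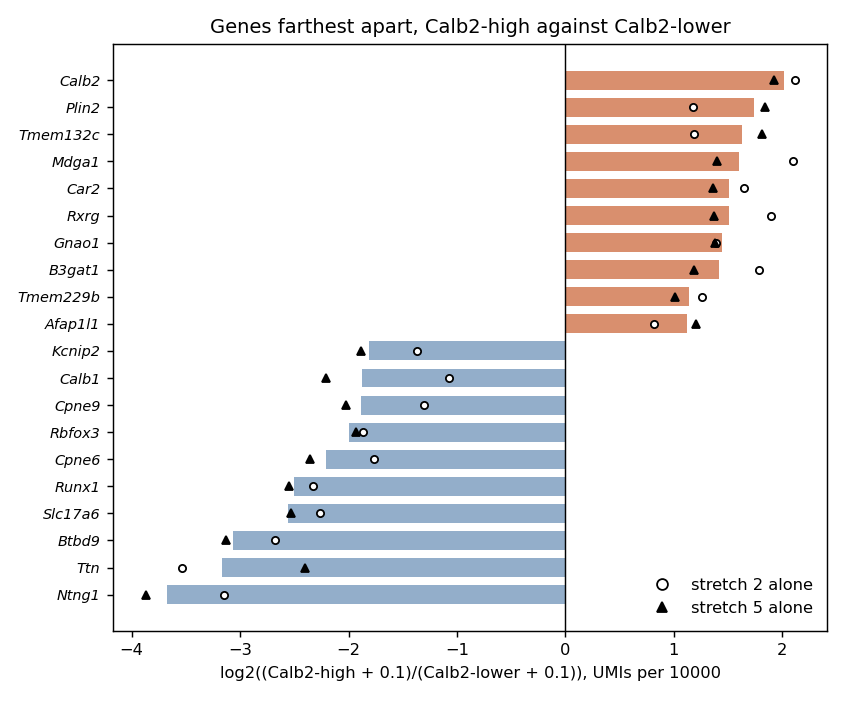
Log2 of the mean in Calb2-high over the mean in Calb2-lower control neurons, 0.1 UMIs per 10000 added to each (horizontal axis), for the 10 genes farthest apart each way; bars use all cells, circles stretch 2 alone and triangles stretch 5 alone. All 20 genes have the same sign in both stretches, from Calb2 at 2.02 to Ntng1 at -3.67.

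When control neurons under the Lypd1 and Dupd1 cuts were followed along Calb2, some genes changed most between the bands beside the cut. Others were graded. Btbd9 averaged 14.2 at Calb2 levels of 25 to 50, 11.1 at 100 to 150, 2.92 at 150 to 200 and 0.891 at 250 or more. Runx1 averaged 1.81, 1.53, 0.434 and 0.143 in the same bands, and Ntng1 2.63, 1.74, 0.303 and 0.0177. Mdga1 had 3.51, 6.10, 13.3 and 12.02, higher above the cut. Over all cells, the largest change of these genes among these bands lay between 100 to 150 and 150 to 200. Mdga1 differed by stretch. At 25 to 50, 100 to 150 and 150 to 200 it had 3.82, 4.22 and 17.1 in stretch 2. In stretch 5 it had 3.11, 6.96 and 11.3, its rise beginning under the cut. Within the Calb2-high neurons Mdga1 was level. The 10 neurons nearest the cut on each side differed less in Runx1 (0.971 inside, 1.29 outside) and Btbd9 (6.93 and 10.8). Plin2 was 0.0776, 0.150, 0.435 and 0.633 in the 4 bands, but its rise between the bands beside the cut was in stretch 5 alone. Its means at 150 to 200 and at 100 to 150 were 0.590 and 0.145 in stretch 5, and 0.142 and 0.159 in stretch 2.

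Other genes followed Calb2 gradually. Zfp804a averaged 2.97, 4.71, 5.97 and 6.92 in the 4 bands. Nefm, the medium neurofilament subunit, averaged 39.6, 50.9, 56.3 and 62.1, and Cd24a, a cell-surface protein gene, 8.58, 13.9, 13.4 and 16.9. B3gat1 had most of its increase under the cut, with 0.490 at 25 to 50, 1.49 at 100 to 150, 2.01 at 150 to 200 and 2.02 at 250 or more. Ttn was already lower under the cut, with 1.84, 0.525, 0.138 and 0.0195, as was Rbfox3 with 1.13, 0.435, 0.232 and 0.101. The course of Ttn differed by stretch. At 25 to 50, 100 to 150 and 150 to 200 it had 2.70, 1.19 and 0.178 in stretch 2. In stretch 5 it had 0.752, 0.220 and 0.117. The genes lower in Calb2-high neurons thus do not share 1 course. Calb2 chose the bands, so these courses are descriptions.

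Single cells showed the same difference between classes and bands. A Btbd9 level of 5 or more was found in 13 of 242 Calb2-high neurons (5.37%) and 372 of 395 Calb2-lower neurons (94.2%), and a Mdga1 level of 8 or more in 216 (89.3%) and 27 (6.84%). At least 2 Runx1 UMIs were found in 50 Calb2-high (20.7%) and 352 Calb2-lower neurons (89.1%). By band, a Btbd9 level of 5 or more occurred in 76.5% of the 51 neurons at 100 to 150, 17.3% of the 52 at 150 to 200 and 0 of the 83 at 250 to 300. These levels were picked after the values had been seen, and depth differs between the classes.

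**Figure D4:**
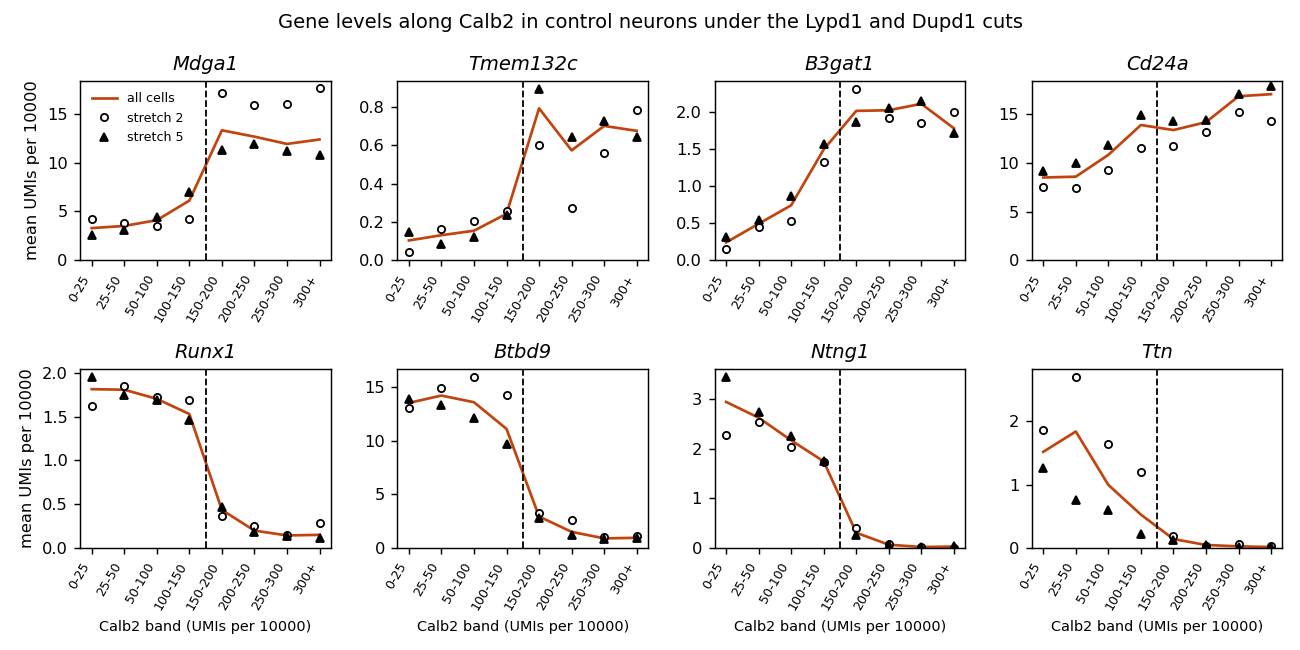
Mean level in UMIs per 10000 (vertical axes, from 0) of 8 genes in 8 bands of Calb2 (horizontal axes) in control neurons under the Lypd1 and Dupd1 cuts; lines join means over all cells, circles are stretch 2, triangles stretch 5, and the dashed line marks the cut at 150. Mdga1 is higher and Runx1, Btbd9 and Ntng1 are lower above the cut in both stretches, while Cd24a and Ttn differ between bands on both sides of it, Cd24a being 8.58 at 25 to 50 and 13.9 at 100 to 150.

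Gene groups were described by counts of members at least 1.5-fold apart at a mean of 0.2 or more. Against the Calb2-lower neurons, 63 of 6619 genes were higher by this rule (0.952%) and 145 lower (2.19%), with a median log2 value of -0.05. The lists were chosen with earlier results of these data known. Neither more nor fewer calls in a list is therefore a result about its group. Of 7 type Ia markers, 7 were higher in the Calb2-high neurons, which the choice of cells favours. Of the 2 type Ib markers at that level, Calb1 and Ttn, 2 were lower, and of the type Ic markers Runx1 alone reached that level and was lower. Runx1 was not particular to the Lypd1-high class, a UMI being seen in 80.9% of its thinned neurons and 73.7% of Calb2-lower ones. The type II marker at that level, Ngfr, averaged 0.978 in Calb2-high and 0.774 in Calb2-lower neurons (log2 0.30).

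Of 15 calcium buffer and sensor genes at that level, 2 were higher, Calb2 and Hpcal1, and 3 were lower, Calb1, S100a10 and Vsnl1. Calb2 chose the cells, and by this rule 0.952% of all genes were higher and 2.19% lower. Hpcal1, a hippocalcin-like sensor, averaged 0.436 in Calb2-high and 0.236 in Calb2-lower neurons (log2 0.67). S100a10, an annexin partner, averaged 2.21 and 4.89 (log2 -1.11), and Vsnl1, visinin-like protein, 4.70 and 7.16 (log2 -0.60). None of 9 pumps, exchangers and uniporter genes was 1.5-fold apart, their median log2 value being -0.02, and none of 7 calcium channel genes was, at a median of -0.31.

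Of 17 voltage-gated potassium channel genes, 4 were lower in Calb2-high than in Calb2-lower neurons, Kcns3, Kcnip1, Kcnip2 and Kcnip3, and 1 was higher, Kcnip4. By this rule 0.952% of all genes were higher and 2.19% lower. The median log2 value of the list was -0.25. Kcnip genes encode the KChIP subunits of A-type channels, and they differed in direction: Kcnip4 averaged 1.01 in Calb2-high and 0.507 in Calb2-lower neurons (log2 0.87), whereas Kcnip1 averaged 0.502 and 0.817 (log2 -0.61). Of 5 leak and calcium-activated potassium channel genes, Kcnk10 (log2 -1.01) and Kcnmb2 (-1.42) were lower. Among 8 sodium and HCN channel genes, Fgf12, which encodes an intracellular partner of sodium channels, averaged 5.60 and 3.67 (log2 0.60), the only member 1.5-fold apart.

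Most synaptic genes were under 1.5-fold apart, as were most genes of any kind (0.952% of all genes higher and 2.19% lower). Of 26 synaptic vesicle and release genes, Slc17a6 and the vesicle protein gene Syn2 (0.681 in Calb2-high and 1.12 in Calb2-lower neurons, log2 -0.65) were lower, and 0 were higher. Of 7 glutamate receptor genes, Grik4, a kainate receptor subunit, was lower (log2 -0.77). Grin1 and Gria2, subunits of NMDA and AMPA receptors, had log2 values of -0.28 and -0.27. None of 5 receptor genes for GABA, glycine and acetylcholine and none of 10 postsynaptic scaffold genes was 1.5-fold apart.

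A few adhesion genes were 1.5-fold apart, where 0.952% of all genes were higher and 2.19% lower by this rule. The higher ones, Mdga1 and Pcdh20, are type Ia markers, which the choice of cells favours. Of 28 synaptic adhesion and contactin genes, Mdga1 was higher in Calb2-high than in Calb2-lower neurons, and Ntng1, Tenm3 and Adgrl2 were lower. Tenm3, a teneurin, averaged 0.469 and 1.03 (log2 -0.98). Adgrl2, one of the latrophilins, which bind teneurins across the synapse, averaged 0.183 and 0.514 (log2 -1.12). Of 9 cadherin genes at that level, Pcdh20 was higher, and Pcdh7 (log2 -0.67) and Clstn2 (-0.61) were lower. Of 13 axon guidance genes, 2 were lower, Sema3e (log2 -0.59) and Robo1 (-0.63), and 0 were higher.

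Most transcription factor genes were under 1.5-fold apart. Of 25 at that level, 2 were higher in Calb2-high than in Calb2-lower neurons, Maf and Rxrg, and 4 were lower, among them Runx1, Cbfb and Mef2c. Over all genes the shares were 0.952% and 2.19%. The list was chosen with earlier results of these data known and holds the marker Rxrg and the deleted gene Runx1. Its higher shares are therefore no result about transcription factors. Maf averaged 3.73 and 2.15 (log2 0.77). Mef2c averaged 0.281 and 0.548 (log2 -0.77).

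Of 20 glycolysis and glycogen genes, Pygm (log2 0.99) and Pygl (0.93) were higher in Calb2-high than in Calb2-lower neurons, and 0 were lower. None of 71 nuclear oxidative phosphorylation genes was 1.5-fold apart, at a median of 0.04. None of 22 cytoskeleton genes was, though Nefm averaged 60.5 and 42.3 (log2 0.51) and Nefh, the heavy neurofilament subunit, 66.2 and 52.9 (log2 0.32). Of 9 carbonic anhydrase and bicarbonate transport genes Car2 alone was 1.5-fold higher, and of 4 retinoid genes Rxrg alone was. Of the 2 HNK-1 enzyme genes at that level, B3gat1 was higher and B3gat3 had log2 0.10.

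RNA of other cells of the cochlea was looked for with marker lists. The summed level of 10 Schwann cell markers averaged 23.3 in Calb2-high neurons (0 to 84.8 across cells), 25.5 in Calb2-lower neurons and 25.1 in all other control neurons, and 0 of 7 members at a mean of 0.2 or more were 1.5-fold apart in either comparison. By that rule 91 of 6753 genes were higher in Calb2-high than in all other control neurons (1.35%) and 306 lower (4.53%). The summed level of 6 satellite glia markers averaged 1.14, 1.47 and 3.53 in the same order, with medians of 1.07, 1.17 and 1.17. In Dupd1-positive cells alone the mean was 16.5, the median 1.42 and the highest value 234.5. Apoe and Fabp7 were lower in Calb2-high neurons than in all others, but Apoe had log2 -0.03 among glia-poor cells (under 5 UMIs per 10000 of glial markers), and against Calb2-lower neurons 0 of 3 members were 1.5-fold apart. Of the Calb2-high neurons, 70.2% held 5 or more UMIs per 10000 of glial markers, against 58.6% of the other control neurons. Among cells under that glial level the count of genes higher than in other control neurons was 26 and the count of lower genes 102. The 4 fibroblast markers measured summed to 0.848 in Calb2-high and 0.914 in other control neurons, with Col3a1 at 0 in the Calb2-high neurons. The 2 hair cell markers measured summed to 0.00533, the 1 macrophage marker measured, Csf1r, was at 0, and endothelial and erythrocyte lists had 0 members in the table. The 10 ganglion neuron markers summed to 184 in Calb2-high neurons and 156 in the others, yet 0 of the 10 were 1.5-fold higher and 3 were lower, Gata3 (log2 -1.38), Rbfox3 (-2.42) and Uchl1 (-0.67). No doublet caller was run, and 1 Calb2-high neuron and 0 other control neurons had over 80000 UMIs.

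Across genotypes, the same 3 cuts gave a larger share of CKO neurons. Calb2-high neurons were 43.4% of CKO neurons (384 of 884, exact 95% interval 40.1 to 46.8) and 22.6% of control neurons. By stretch the share was 47.0% (stretch 1), 53.2% (stretch 3) and 12.1% (stretch 4) for CKO, against 10.8% (stretch 2) and 32.3% (stretch 5) for control. The stretches of the genotypes therefore overlap, CKO stretch 4 lying between the control stretches, and no test over samples could be made. CKO and control Calb2-high neurons had median depths of 50506 and 48726 UMIs, and 72.4% (278 of 384, 67.6 to 76.8) and 76.9% held at least 3 of the 5 other type Ia markers after thinning. The 7 type Ia markers had a median log2 value of -0.10 between CKO and control, with none 1.5-fold apart. By that rule only 0.298% of 6381 genes were higher and 0.251% lower, and Calb2 was cut alike in both genotypes. The absence of differences among 7 genes therefore says little about them.

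Within the Calb2-high neurons, 9 of 3611 genes were at least 2-fold higher in CKO than in control (0.249%) and 5 at least 2-fold lower (0.138%). These counts include 2 sex-linked genes, noticed after their values were seen. Xist averaged 1.68 in CKO and 0.733 in control (log2 1.10), and the Y-linked Ddx3y 0.232 and 0.582 (log2 -1.04). The pools thus differ in RNA from females and males, and the part of this in the other values was not tested. The 2 predicted genes 1700026D08Rik (higher) and Gm1821 (lower) are also counted. At 1.5-fold and a mean of 0.2 or more, 19 of 6381 genes were higher (0.298%) and 16 lower (0.251%). The comparison shares its control Calb2-high neurons with the comparison against Calb2-lower neurons, so levels are given side by side. Calb1 averaged 2.25, 1.77 and 0.198 in CKO stretches 1, 3 and 4, against 0.554 and 0.209 in control stretches 2 and 5 (log2 2.38, ratio of UMI rates 6.74, 6.01 to 7.58). Stretches 1 and 3 were above both control stretches, and stretch 4, with 19 Calb2-high neurons, was under both. Ntng1 (0.612, 0.563 and 0.0259 in CKO, 0.164 and 0.0738 in control, log2 1.77) and Slc17a6 (0.958, 0.545 and 0.122 in CKO, 0.445 and 0.234 in control, log2 1.08) had the same order of stretches. Without control stretch 5 the log2 value was 1.61 for Calb1, 1.32 for Ntng1 and 0.56, under 2-fold, for Slc17a6, and that of Slc17a6 was also under 2-fold without CKO stretch 1 (0.68) and in glia-poor cells (0.91). Ntng1 and Slc17a6 stayed far under the Calb2-lower control neurons, at 2.36 for Ntng1 and 2.13 for Slc17a6.

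Runx1 RNA, the target of the deletion, was higher in CKO Calb2-high neurons, with 2.04, 1.47 and 0.0816 in stretches 1, 3 and 4, against 0.271 and 0.209 in the control stretches (log2 2.44, ratio of UMI rates 7.34, 6.46 to 8.38). The mean of 1.65 in CKO was near the 1.73 of Calb2-lower control neurons. Because reads come from transcript 3' ends and the floxed exons are not named in the sources used here, these counts do not show whether the gene was recombined. Btbd9 did not follow Runx1. It averaged 0.940, 0.904 and 0.846 in the CKO stretches, against 2.27 and 1.31 in the control stretches (log2 -0.67), and all 3 CKO values lay under both control values. After thinning, 58.9% of CKO Calb2-high neurons held a Runx1 UMI, against 16.5% of control Calb2-high neurons, and 49.2% held a Calb1 UMI, against 15.7%.

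Other genes higher in CKO Calb2-high neurons were Rps2 (log2 1.70), a ribosomal protein gene with near-identical pseudogene copies whose counts are uncertain, Ceacam10 (1.56), Ubb (1.04), a polyubiquitin gene, and Ptgds (0.87, under 2-fold), a prostaglandin synthase. Ceacam10 averaged 0.839, 0.806 and 0.513 in the CKO stretches, against 0.390 and 0.158 in the control stretches, all CKO values being above both. In glia-poor cells, however, its log2 value was 0.08, and without control stretch 5 it was 0.89. Ptgds was 0.13 in glia-poor cells and 1.89 without control stretch 5. Ubb was 4.09 and 4.69 in CKO stretches 1 and 3 but 0.435 in stretch 4, against 2.52 and 1.85 in control. Without control stretch 5 the value of Ubb was 0.72, under 2-fold.

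Lower in CKO were Lgals1, Pygm and Plin2, and, under 2-fold, Scg5, Btbd9, Prx and Cap1. Lgals1, the lectin galectin-1, averaged 0.396, 0.308 and 0.209 in the CKO stretches, against 0.946 and 0.900 in the control stretches (log2 -1.19, ratio of UMI rates 0.378, 0.343 to 0.417), and the stretches did not overlap. In control, Pygm was higher in Calb2-high than in all other neurons (log2 1.54), but under 2-fold higher than in Calb2-lower neurons (log2 0.99). Among Calb2-high neurons it averaged 0.400, 0.0548 and 0.0421 in CKO, against 0.748 and 0.493 in control (log2 -1.09). Its value was -0.48 without CKO stretch 3, under 2-fold, and -2.07 without CKO stretch 1. Plin2 averaged 0.243, 0.190 and 0.419 in CKO, against 0.328 and 0.616 in control (log2 -1.01), the stretches overlapping. Without control stretch 5 it was -0.40. The values of 3 of these genes changed sign with the cells used: Scg5 (-0.70) was 0.74 and Cap1 (-0.59) 0.03 without control stretch 5, and Prx (-0.61), a myelin gene of Schwann cells, was 0.09 in glia-poor cells. Of CKO and control Calb2-high neurons, 60.2% and 70.2% held 5 or more UMIs per 10000 of glial markers.

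**Figure D5:**
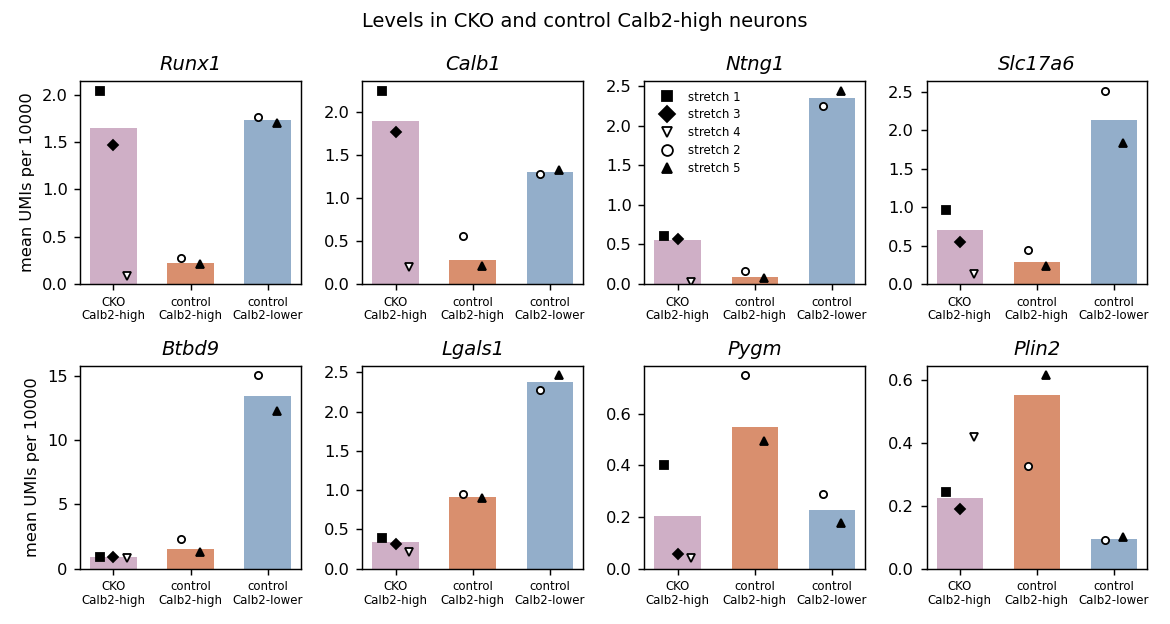
Mean level in UMIs per 10000 (vertical axes, from 0) of 8 genes in CKO Calb2-high, control Calb2-high and control Calb2-lower neurons; bars are means over all cells and symbols are column stretches. Runx1, Calb1, Ntng1 and Slc17a6 are higher in CKO stretches 1 and 3 than in control Calb2-high neurons but not in stretch 4, and Btbd9 stays near 0.917 in CKO.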

How the data were processed

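A table of natural log values for 14715 genes in 1954 cells was deposited, with a record of each cell's genotype. Per the submitters' processing notes, Cell Ranger, Seurat and the build mm10 were used, and versions and filters are not given in the sources used here. The deposited natural log values are ln(1 + 100000 × UMIs / total), settled from the values: whole UMIs were recovered from 100% of 12815235 values above 0 (tolerance 0.01). Cells hold 10379 to 100856 UMIs, and 0 mitochondrial genes are in the matrix.

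The plan foresaw that cells might be assigned to samples. They could not be, so each genotype is 1 pool, no count model or test was run, and intervals (exact binomial for shares, exact conditional binomial for ratios of UMI rates, both 95%) cover counting error only. Members, gene lists and comparisons were chosen with earlier results of these data known. Levels are means over cells of UMIs per 10000. Genes were called at 2-fold and a mean of 0.5 or more in either group, and list members at 1.5-fold and 0.2.

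Named genes are the 6 markers and the 3 genes of the rule, then the 15 (all other control neurons), 10 (Calb2-lower) and 8 (CKO against control) genes each way with the largest log2 values, without predicted, sex-linked or mitochondrial genes, and up to 5 members per list. A gene that this rule names is not reported here. In all, 37 gene lists were described or checked. For shares of cells with a UMI, cells were thinned to 10000 UMIs. Annotation is from GENCODE M21 and promoters from RefSeq. Python 3.11.15, numpy 2.4.6, pandas 2.3.3 and scipy 1.17.1 were used, and the counting scripts were tested on simulated data. Alternatives were another added value, other filters, summed UMIs, thinned cells, Calb2 cuts of 120 and 200, glia-poor cells (under 5 glial UMIs per 10000) and leaving out each column stretch.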

Additional observations from a re-analysis of the deposited data

How the results depend on the processing

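No direction among the named genes at least 2-fold apart turned under any alternative run. Over all alternatives, 30 of 30 named genes kept their sign against the other control neurons, 20 of 20 against the Calb2-lower neurons, and 13 of 16 between CKO and control, all but Scg5, Cap1 and Prx. The share of 22.6% was 17.8% with Calb2 at 200 or more, 17.3% among glia-poor cells, 32.3% without control stretch 2 and 10.8% without control stretch 5. With 0.5 added to each mean, 7 and 32 genes were higher and lower than in the other control neurons, in place of 21 and 69, 3 and 13 against Calb2-lower neurons, in place of 12 and 29, and 4 and 1 between CKO and control, in place of 9 and 5. With a mean of 0.2 or more, 131 genes were lower than in the other control neurons, and 19 were higher and 44 lower than in Calb2-lower neurons. With no filter, 33 were higher and 172 lower than in the others, and 20 and 56 against Calb2-lower neurons. Without Dupd1-positive cells 45 were lower than in the others. The 5 genes lower in CKO were 3 with summed UMIs, with thinned cells, with Calb2 at 200 or more and without CKO stretch 1. A filter or added value counts more or fewer low genes by its construction, and for the remaining alternatives the cause was not tested. Of the values of named genes under an alternative, 368 stayed within counting error of the reported log2 value and 238 did not. Of the list medians, 767 stayed within 0.1 and 98 did not. No paired analysis was possible because the cells carry no sample or replicate number, so replicates could not be left out either, and column stretches were left out instead. The lowest levels named rest on few UMIs, and cells of 1 pool give no spread between animals.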

Other observations

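The animals were of both sexes, and control neurons could be parted by RNA of Xist, which is made from the inactive X chromosome, and of Y-linked genes. In stretch 2, Calb2-high neurons were 9.93% of the neurons with Xist alone (27 of 272, exact 95% interval 6.64 to 14.1) and 12.3% of those with Y-linked RNA alone (25 of 203, 8.13 to 17.6). In stretch 5 they were 23.1% (31 of 134, 16.3 to 31.2) and 35.6% (157 of 441, 31.1 to 40.3). The difference between stretches was thus present in cells with Xist and in cells with Y-linked RNA, while the intervals of the 2 kinds of cell overlap in stretch 2 and, barely, in stretch 5. The number of animals behind these cells is not given in the sources used here, so no test between sexes was made.

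A small set of Calb2-high neurons kept high Btbd9. Of the 13 with a Btbd9 level of 5 or more, 9 lay at Calb2 levels of 150 to 200, 4 at 200 to 250 and 0 above. In the band of 150 to 200, 17.3% of 52 neurons were of this kind, against 76.5% of 51 at 100 to 150. The tdTomato reporter RNA (listed as Tomato) averaged 10.4 at Calb2 levels of 25 to 50, 7.97 at 100 to 150, 6.48 at 150 to 200 and 7.54 at 250 or more. Whether the reporter level bears on which cells passed the sort was not tested.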
